A study of Homo sapiens with 20 samples.

Results

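The promoters that c-Myc (a transcription factor, MYC for short) shared with RNA polymerase II (POL2) were described in PC-3 cells lacking the kinase gene SLK. PC-3 is an established human prostate cancer cell line. The knockout cells carry the name PSD10 in the labels, which do not say whether they are a single clone. Chromatin was immunoprecipitated from knockout cells in ordinary culture with an antibody against MYC or an antibody against POL2, as 3 biological replicates each. These 6 libraries are part of a series of 20 samples that also holds wild-type PC-3 cells and IgG and Input controls, none of which was used here. The study's title names SLK as a co-regulator of MYC, and the comparison made here asks which POL2-occupied promoters MYC shared once SLK was gone.

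Each library was represented by its list of summits, the single bases at which called peaks are highest. The MYC lists held 1218, 1420 and 988 summits and the POL2 lists 19017, 15436 and 16298. The lists carry no read depth, and a longer list may come from a deeper library. A coding gene was called bound by an antibody when at least 2 of its 3 lists had a summit within 1 kb of one of the gene's transcription start sites (TSSs). Of 19689 coding genes, 9159 (46.5%) were POL2-bound and 910 (4.62%) were MYC-bound, and 880 were bound by both. MYC was thus called at 9.61% of POL2-bound genes, which is the background for every gene group that follows. Any TSS of a gene counted for either antibody, so a gene bound by both could have MYC and POL2 at different TSSs. At FERMT2, for example, the MYC site lay 31038 bp from the nearest POL2 summit. The POL2-bound genes included the epithelial keratin genes KRT8 and KRT18, with median POL2 ranks of 294 and 1247. KLK3, which encodes prostate-specific antigen, had a POL2 summit in 0 of 3 libraries.

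MYC is a basic helix-loop-helix leucine zipper protein that binds DNA as a dimer with MAX, with a preference for the palindrome CACGTG, the canonical E-box. It is best known in proliferating and cancer cells for occupying promoters that are already active, among them those of genes for ribosomes, nucleotide synthesis and metabolism. POL2 assembles at the TSS, starts transcription and then commonly pauses a short distance downstream, so its ChIP signal at active genes peaks just past the TSS. SLK is a serine/threonine kinase of the Ste20 family, known mainly for roles in the cytoskeleton and cell adhesion.

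The DNA under some of the shared sites is printed here to show the E-box in place, and each of these sites was picked because it holds one. NME1 to PAICS are among the sites with the best MYC ranks, while NCL, ODC1, EIF4A1 and MXD3 ranked lower and are shown for their function. Among the other best-ranked sites, CACGTG was not found within 100 bp of the summit at BRWD1, RPS24, PPAN, ENO1 and EIF3B. The sequences at MFSD3 and EIF3E are not printed, and whether they hold the motif is not reported here. Rank 1 is the best score in a list. Each line gives 30 bases of the GRCh38 reference on the strand of the gene named first, 5′ to 3′, with CACGTG in capitals.
NME1 chr17:51153581-51153610 (+): agtgctgcgaacCACGTGggtcccgggcgc
NPM1 chr5:171388573-171388602 (+): gCACGTGgttgcCACGTGgttgggggaggg
MGME1 and SNX5 chr20:17968674-17968703 (+): gggcaaagacgcCACGTGgggcctaccctt
CCDC47 chr17:63773837-63773866 (-): cttgcctctggcCACGTGgtcccacacagc
RPSA chr3:39406902-39406931 (+): gcctgcggcccgCACGTGgccaggctcggg
G6PC3 chr17:44070670-44070699 (+): tgcaacagtggcCACGTGgggccctgagga
PAICS and PPAT chr4:56436447-56436476 (+): cgcgcgggcgcaCACGTGgcccaggcgctc
NCL chr2:231463783-231463812 (-): ctgtgtttcgggCACGTGgtggcctaccag
ODC1 chr2:10447990-10448019 (-): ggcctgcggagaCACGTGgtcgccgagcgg
EIF4A1 chr17:7572519-7572548 (+): ctgtcgcctccgCACGTGtgagagtgcagg
MXD3 chr5:177312264-177312293 (-): ccccgcggcaccCACGTGcagcggctgggc
The NPM1 stretch holds 2 copies of the motif. In the site at NME1 the centre of the E-box lay 26.5 bp from the summit along the chromosome, at NPM1 -9.5 bp (for its nearer copy) and at EIF4A1 -1.5 bp. Over all MYC summits with CACGTG (both strands read alike, since the motif is its own reverse complement) within 100 bp, the median distance from summit to motif was 27.5, 25.5 and 24 bp in replicates 1, 2 and 3. The motif was present at 30.3% ± 0.814 of all MYC summits (SD, n = 3). It was present at 3.66%, 3.37% and 3.58% of POL2 promoter summits of genes without MYC, and in 5.63% of windows of 201 bp centred on the canonical TSSs of 19688 coding genes. The related motif CACGCG or its complement CGCGTG, counted apart from CACGTG, lay near 32.0% ± 1.33 of MYC promoter summits with POL2 (SD, n = 3). It occurred in 10.8% of the same TSS windows and near 10.1%, 9.59% and 10.4% of POL2 promoter summits without MYC. A motif match describes the sequence and is not evidence of contact.

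Nearly all promoters with MYC belonged to genes with POL2, counted over all TSSs of a gene. Of the 910 MYC-bound genes, 880 (96.7%) were POL2-bound, 10 had POL2 in 1 of 3 libraries and 20 in 0 of 3. By summit the share was lower: a POL2 summit of the same-numbered library lay within 1 kb of 85.6%, 81.5% and 86.5% of all MYC summits. A MYC summit lay at 11.0%, 12.7% and 9.37% of POL2-bound genes in replicates 1, 2 and 3, a mean of 11.0% ± 1.65 (SD, n = 3). Among the 9612 genes with POL2 in 0 of 3 libraries it lay at 0.26%, 0.25% and 0.198%, a mean of 0.236% ± 0.0334 (SD, n = 3). The difference was 10.8, 12.4 and 9.17 percentage points in the 3 libraries, a mean of 10.8, and the shares did not overlap. Exact two-sided sign flips over the 3 libraries gave p = 0.25 (0.292 after Benjamini-Hochberg adjustment over 7 tests), the smallest value that 8 flips allow. The MYC-bound share also followed how often POL2 was seen: it was 10.4% of the 8113 genes with POL2 in 3 of 3 libraries, 3.15% of the 1046 genes with POL2 in 2, and 1.09% of the 918 genes with POL2 in 1. With all lists shortened to their 988 best summits, the shares were 22.4% and 3.24%. With summits scoring at least 10 they were 3.35% and 0.113%.

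The 880 genes rested on 740 distinct MYC sites, a site being a chain of MYC summits 250 bp or less apart. At 134 of these sites the same summits served more than 1 gene, as at the divergent pair PAICS and PPAT, which encode enzymes of purine synthesis, so that 274 genes shared their site with another. Both antibodies had a summit in 3 of 3 libraries at 430 genes. A further 830 POL2-bound genes had MYC in a single library, and 7449 had MYC in none. Pairs of MYC libraries shared 657 of the POL2-bound genes (65.1% of those in replicate 1 and 56.6% of those in replicate 2), 530 (52.5% of replicate 1 and 61.8% of replicate 3) and 567 (48.9% of replicate 2 and 66.1% of replicate 3). The count of 880 therefore depended on the call rule. It was 530 without MYC replicate 2 and 567 without MYC replicate 1, when both remaining MYC libraries had to hold the summit, and 1751 when a single library of each antibody was enough.

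The promoters with the best MYC ranks included several genes of cell growth. NME1, which encodes a nucleoside diphosphate kinase, ranked 3, 2 and 3 in the MYC lists, with summits at 8, -7 and -1 bp from a TSS (negative being upstream). Its POL2 ranks were moderate, at 1738, 1759 and 3006. BRWD1, a bromodomain protein gene, ranked 2, 3 and 5 for MYC and 3330, 5379 and 5839 for POL2. NPM1, the gene for the nucleolar protein nucleophosmin, stood near the top of both sets of lists, with MYC ranks of 10, 8 and 7 and POL2 ranks of 36, 46 and 50. The promoter shared by MGME1, which encodes a mitochondrial genome maintenance exonuclease, and the sorting nexin gene SNX5 ranked 4, 7 and 6 for MYC and 986, 1825 and 1646 for POL2. A very strong MYC call thus came with POL2 calls of quite different rank.

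Others of the best 15 sites lay at genes of the translation apparatus. RPS24, a small ribosomal subunit protein gene, ranked 8, 31 and 10 for MYC and 66, 71 and 69 for POL2. RPSA, another small subunit protein gene, ranked 15, 13 and 26 for MYC and 266, 193 and 323 for POL2. PPAN, a ribosome biogenesis gene, ranked 16, 9 and 13 for MYC but 2594, 3707 and 976 for POL2. The genes EIF3E and EIF3B encode subunits of the translation initiation factor that helps to load messenger RNA onto ribosomes, and their median MYC ranks were 14 and 20.

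The remaining sites were at varied genes. The splicing factor gene SRSF6, on a site shared with a second annotated gene, ranked 9, 4 and 11 for MYC and 88, 75 and 118 for POL2. The glycolytic enzyme gene ENO1 ranked 17, 19 and 21 for MYC and 380, 271 and 391 for POL2. G6PC3, a glucose-6-phosphatase gene, ranked 6, 16 and 18 for MYC and 5051, 2699 and 4835 for POL2. The site between CCDC47 and DDX42 ranked 7, 12 and 50 for MYC and 2856, 1624 and 2327 for POL2. MFSD3 ranked 12, 10 and 8 for MYC and 2869, 5433 and 5783 for POL2. PAICS with PPAT ranked 25, 42 and 23 for MYC. Of the 50, 100 and 200 genes with the best median MYC ranks, 49, 98 and 196 were POL2-bound.

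**Figure D1:**
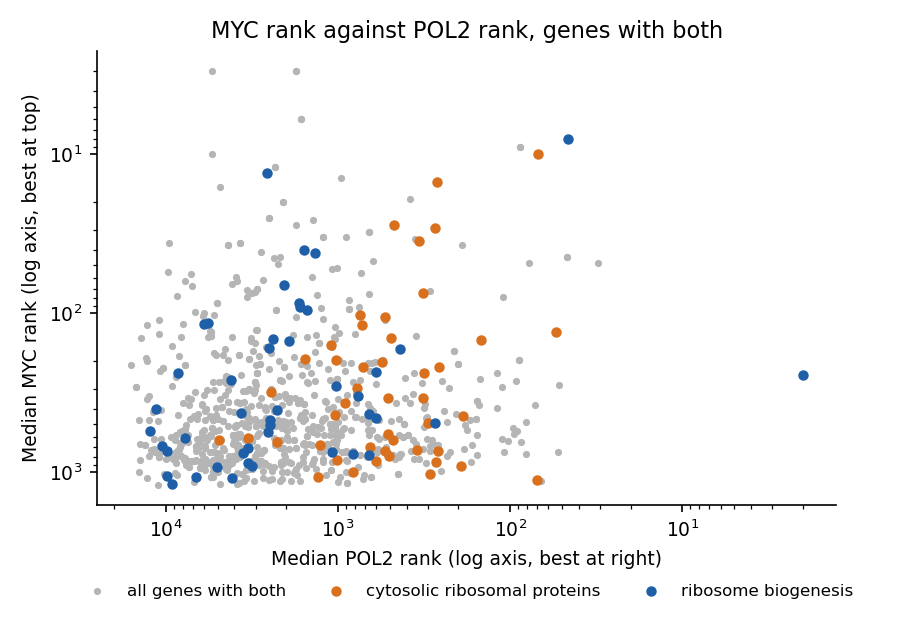
Each point is a gene bound by both MYC and POL2, with its median rank among POL2 summits on the x axis (log scale, best at right) and among MYC summits on the y axis (log scale, best at top). Orange points are cytosolic ribosomal protein genes and blue points ribosome biogenesis genes; NPM1 and RPS24 lie toward the upper right, while the best MYC ranks (NME1 and BRWD1, median 3) come with POL2 ranks of 1759 and 5379.

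Among the gene lists of more than 10 POL2-bound members, those of cytosolic ribosomal proteins and ribosome biogenesis held MYC most often. Of 74 POL2-bound cytosolic ribosomal protein genes, 46 (62.2%) were MYC-bound, 28 of them in 3 of 3 libraries, against 9.61% of all POL2-bound genes. By library the share was 58.1%, 64.9% and 51.4%. These genes also had high POL2 scores: their median POL2 rank percentile (0 being the best summit of a list and 100 the last) was 4.03, against 30.0 over all POL2-bound genes. RPL5 ranked 28, 17 and 38 for MYC. RPLP0 had a median MYC rank of 132 with a median POL2 rank of 54. Not all strongly POL2-bound members had MYC: RPL3 and RPS27, with median POL2 ranks of 198 and 127, had a MYC summit in 0 of 3 libraries. CACGTG lay within 250 bp of the canonical TSS at 11 of the 74 genes (14.9%) and at 9 of the 46 with MYC (19.6%). The share was 25.2% among all 880 genes with MYC and 10.4% among POL2-bound genes without.

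Ribosome biogenesis genes, whose products make and assemble ribosomes in the nucleolus, came next among the long lists, with MYC at 45 of 98 POL2-bound members (45.9%), or 49.0%, 48.0% and 38.8% by library. Their median POL2 percentile was 26.7, close to that of all POL2-bound genes. DDX21, a nucleolar RNA helicase gene, ranked 40, 40 and 32 for MYC. DDX54, of the same helicase family, ranked 114, 32 and 42. WDR74, which takes part in assembly of the large ribosomal subunit, had a median POL2 rank of 2 and a MYC summit in 2 of 3 libraries. Whether its POL2 summits belong to WDR74 or to a neighbouring gene was not tested. The other translation lists were lower. Aminoacyl-tRNA synthetase genes, which charge tRNAs, had MYC at 10 of 34 (29.4%), among them YARS1 with MYC ranks of 184, 139 and 106. Translation factor genes had it at 13 of 45 (28.9%), among them EIF4A1, the gene for a helicase that unwinds messenger RNA leaders, with ranks of 69, 150 and 72. Mitochondrial ribosomal protein genes stood much closer to the background, at 9 of 71 (12.7%), with MRPL24 ranked 38, 204 and 57.

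Genes of protein folding, import and RNA processing lay between the ribosome lists and the background. Chaperone genes had MYC at 10 of 37 POL2-bound members (27%). The cytosolic chaperone gene HSP90AB1 ranked 379, 45 and 439 for MYC and 72, 70 and 73 for POL2, so its MYC rank varied far more between libraries than its POL2 rank. The mitochondrial chaperonin genes HSPD1 and HSPE1 shared 1 site, seen in 2 of 3 libraries. Nuclear transport genes had MYC at 12 of 46 (26.1%), with RAN, the GTPase that drives transport, at ranks 54, 155 and 128. Mitochondrial protein import genes had it at 7 of 27 (25.9%), with TIMM9 at 212, 472 and 975. Splicing factor genes had it at 18 of 82 (22.0%), with SNRPE, which encodes a core protein of spliceosomal particles, at 80, 106 and 120.

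Metabolic lists were uneven. Nucleotide and one-carbon synthesis genes had MYC at 9 of 37 POL2-bound members (24.3%), including NME1, PAICS, PPAT and NME2. ATF4 target and serine synthesis genes had it at 4 of 16 (25%), namely MTHFD2, ATF4, PSPH and ATF5. Glycolysis and citrate cycle genes had it at 5 of 32 (15.6%), with the hexokinase gene HK2 seen in 2 libraries at ranks 477 and 210. Within the best of 5 equal groups of POL2-bound genes by POL2 rank, MYC was at 2 of 13 glycolysis and citrate cycle genes (15.4%). That compares with 21.1% of all genes in that group. In the next group MYC was at 2 of 4, against 12.1% of all genes. Sterol and fatty acid synthesis genes had it at 3 of 21 (14.3%), among them SCAP and FASN, and amino acid transporter genes at 2 of 10 (20%), SLC3A2 and SLC6A9. Respiratory chain genes lay below the background, at 3 of 62 (4.84%). In polyamine synthesis, 2 of 11 POL2-bound genes had MYC (18.2%). These were ODC1, the gene for the first enzyme of the pathway, at ranks 235, 455 and 472, and AZIN1, an antizyme inhibitor gene, at 640, 345 and 359. SRM, the spermidine synthase gene, had MYC in 1 library only, at rank 193.

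The MYC network itself was partly occupied. Of 13 genes of the MYC and MAX network, 9 were POL2-bound and 4 of these MYC-bound (44.4%). MXD3, which encodes a MAX partner that opposes MYC, had MYC ranks of 118, 100 and 192 with late POL2 ranks of 12908, 10478 and 14096. MXD1, of the same family, and MGA, a further MAX partner gene, had MYC in 2 of 3 libraries. The MYC gene had MYC ranks of 47, 117 and 79 and POL2 ranks of 98, 173 and 110. Its MYC summits lay 660, 758 and 610 bp downstream of an annotated TSS, and the nearest POL2 summit was 2139 bp from the site. MAX had MYC in a single library, at rank 749. Of 10 established MYC targets, 7 were POL2-bound and 5 of these MYC-bound: NME1, NPM1, NCL, ODC1 and CDK4. NCL, the nucleolin gene, ranked 62, 259 and 168. CDK4, which drives entry into the cell cycle, ranked late, at 747, 1297 and 871. CAD and PTMA had POL2 in 3 of 3 libraries and MYC in 0 of 3. LDHA, APEX1 and FBL had no summit of either antibody, with the nearest POL2 summit 130213, 226688 and 300289 bp away. That was not read as absent binding, and its cause was not tested. SLK had POL2 ranks of 6483, 7414 and 7356 and MYC in 0 of 3 libraries; a summit list does not show whether its product was lost.

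Among lists of regulatory genes, shares ran from under the background to well above it. Those at or under it, among them the zinc finger and Hippo pathway lists, are given further on. AP-1 and immediate early genes had MYC at 6 of 21 POL2-bound members (28.6%), 1 of them in 3 of 3 libraries, and a median POL2 percentile of 2.22. Most of these members, 16, were in the best of 5 equal groups of POL2-bound genes by POL2 rank. There MYC was at 5 of the 16 (31.2%), against 21.1% of all genes in that group. The phosphatase gene DUSP1, with POL2 ranks of 102, 120 and 123, had MYC in 2 libraries at ranks 247 and 542. Chromatin modifier and remodeler genes had it at 17 of 101 (16.8%), led by SMARCC1, a subunit of the SWI/SNF remodeler, at 53, 30 and 82. Cell cycle and replication genes had it at 12 of 90 (13.3%), led by the replicative helicase gene MCM7 at 30, 36 and 60. Circadian clock genes had it at 2 of 15 (13.3%), NR1D2 and CIART. Both shares of 13.3% were close to the background, and that of the clock genes rested on very few genes.

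Further lists stood at or under the background. The POL2 machinery and Mediator had MYC at 8 of 87 (9.20%), the proteasome at 3 of 37 (8.11%) and the lysosome and proton pump at 2 of 28 (7.14%). Genes named ZNF, which encode zinc finger proteins, had it at 20 of 324 (6.17%), vesicle trafficking at 6 of 109 (5.50%) and focal adhesion and actin at 3 of 57 (5.26%). Epithelial and mesenchymal identity genes had it at 1 of 16 (6.25%), which was SNAI1, and Hippo pathway genes at 1 of 20 (5.00%), AJUBA. NF-kB and cytokine genes had it at 0 of 17. None of 390 olfactory receptor genes, which are largely silent outside the nose, was POL2-bound. In all, 284 of the 880 genes belonged to a list and 596 to none.

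**Figure D2:**
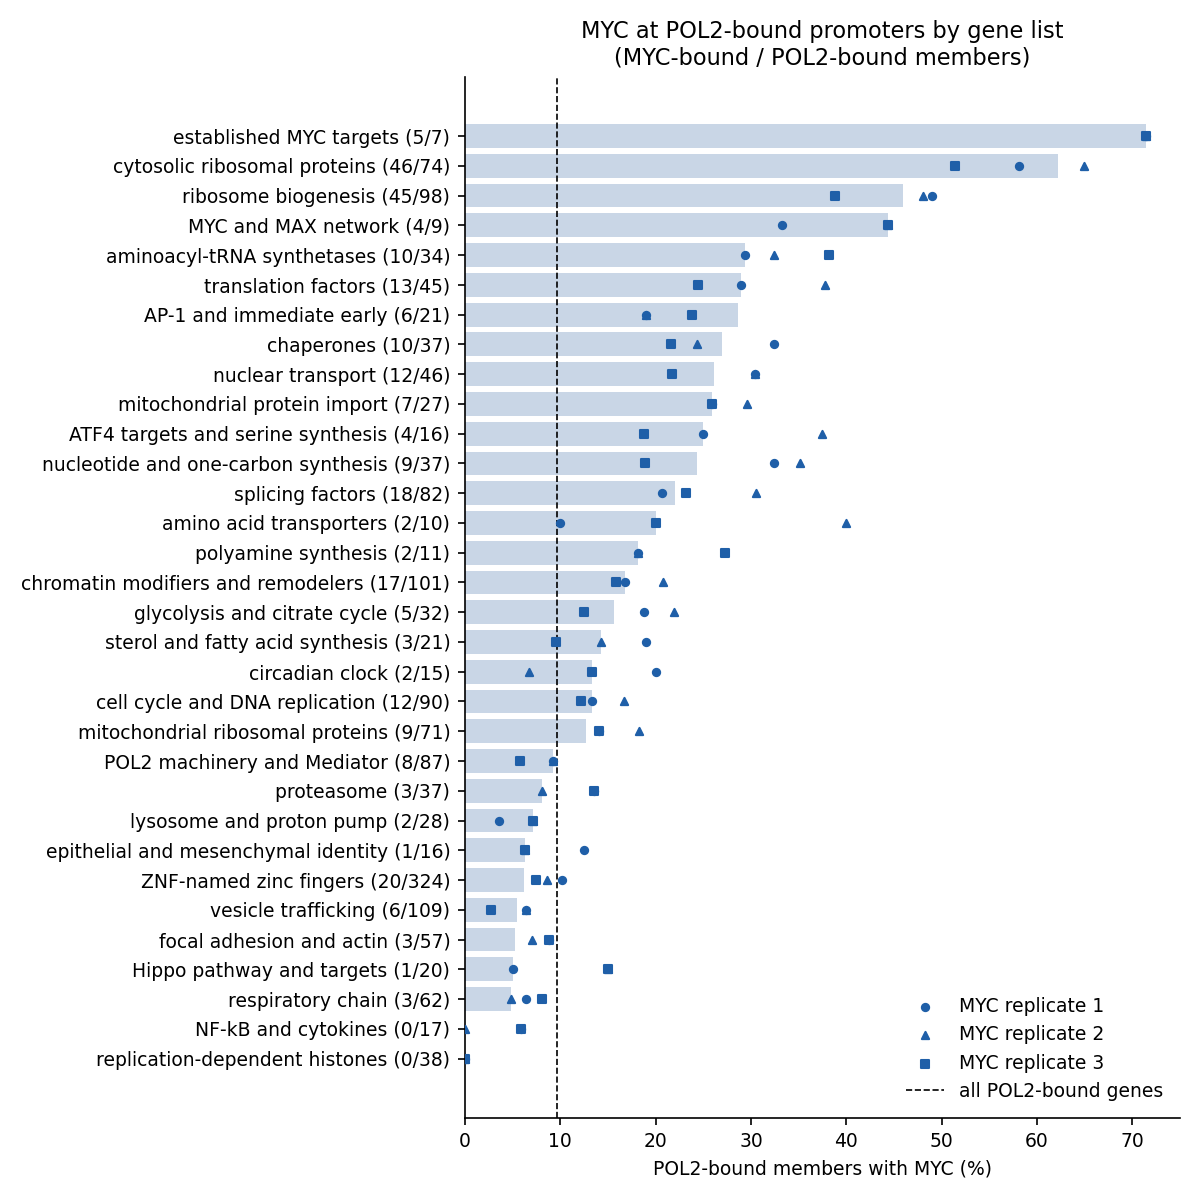
Bars give the percent of POL2-bound members that were MYC-bound (2 of 3 libraries) for the gene lists shown, which are not all of the lists. Points give the percent in each MYC library, and the dashed line the 9.61% of all POL2-bound genes. Apart from the short list of established MYC targets, cytosolic ribosomal protein genes (62.2%) and ribosome biogenesis genes (45.9%) reach furthest from the line. The bars of replication-dependent histone genes and of NF-kB and cytokine genes lie at 0.

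Replication-dependent histone genes were the clearest case of POL2 without MYC. Their median POL2 percentile was 1.04, better than that of ribosomal protein genes, yet 0 of 38 POL2-bound members were MYC-bound and 0 had MYC in any single library. The linker histone gene H1-2 ranked 53, 62 and 52 for POL2. Divergent histone genes share promoters and hence POL2 summits, so the 38 genes are fewer independent promoters. Their promoters also differed in sequence: the median GC content within 250 bp of the canonical TSS was 50.2%, against 67.1% at POL2-bound genes without MYC, and none held CACGTG. Whether these features bear on the absence of MYC calls was not tested.

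Other promoters with top POL2 ranks and MYC in 0 of 3 libraries were scattered in function. POLDIP3, an RNA export factor gene, ranked 28, 22 and 27 for POL2, with summits at -395, -399 and -399 bp from its TSS. Whether these summits belong to POLDIP3 was not tested. H3-3B, which encodes the replication-independent histone H3.3, ranked 33, 34 and 29. HEXIM1, the gene for an inhibitor of the elongation kinase P-TEFb, ranked 45, 35 and 39. The signalling genes DKK1, ARRDC3 and HES1 had median POL2 ranks of 42, 45 and 47. RCC1 had a median of 46. BOLA1 had a median of 31, but its POL2 summits lay at -971, -953 and -941 bp from its TSS, and whether they belong to this gene was not tested. All of these genes were picked for a POL2 summit in 3 of 3 libraries and the best median POL2 ranks. Similar POL2 ranks between the libraries are in part a result of that choice.

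POL2 scores were better at promoters with MYC. The median POL2 rank percentile of MYC-bound genes was 11.7, 14.6 and 13.2 in the 3 POL2 libraries, a mean of 13.2 ± 1.48 (SD, n = 3). That of POL2-bound genes with MYC in 0 of 3 libraries was 28.0, 32.9 and 31.9, a mean of 30.9 ± 2.60 (SD, n = 3). The groups did not overlap, and the mean difference was -17.7 percentile points, with the same sign in 3 of 3 libraries (exact two-sided sign flips p = 0.25, adjusted 0.292, the smallest possible). The percentile was graded over the number of MYC libraries with a summit, at 30.9 ± 2.59, 20.2 ± 2.00, 15.8 ± 1.86 and 11.1 ± 1.31 for 0, 1, 2 and 3 libraries (SD, n = 3). In lists of 988 summits, which keep only the best POL2 promoters, the difference was -7.42 points. The IgG libraries were not analysed here, so signal without a specific antibody at these promoters was not measured.

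Seen from POL2, the MYC-bound share was lower at each step down in POL2 rank. POL2-bound genes were divided by their rank in each POL2 library into 5 equal groups. From the best to the last, 21.6% ± 0.5, 11.9% ± 1.01, 7.58% ± 0.685, 4.85% ± 0.501 and 3.39% ± 0.345 of genes were MYC-bound (SD, n = 3). The 3 libraries did not overlap between neighbouring groups. Even so, most promoters with very high POL2 had no MYC: among the 100, 500 and 1000 genes with the best median POL2 rank, 31, 136 (27.2%) and 265 (26.5%) were MYC-bound. Gene groups differed within the best POL2 group. With genes placed by their mean percentile over the 3 libraries, 387 of 1832 genes in it (21.1%) were MYC-bound. The counts were 43 of 63 ribosomal protein genes (68.3%), 16 of 20 ribosome biogenesis genes (80.0%) and 13 of 29 splicing factor genes (44.8%). In the same group MYC was at 1 of 26 focal adhesion and actin genes (3.85%) and 0 of 34 histone genes.

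**Figure D3:**
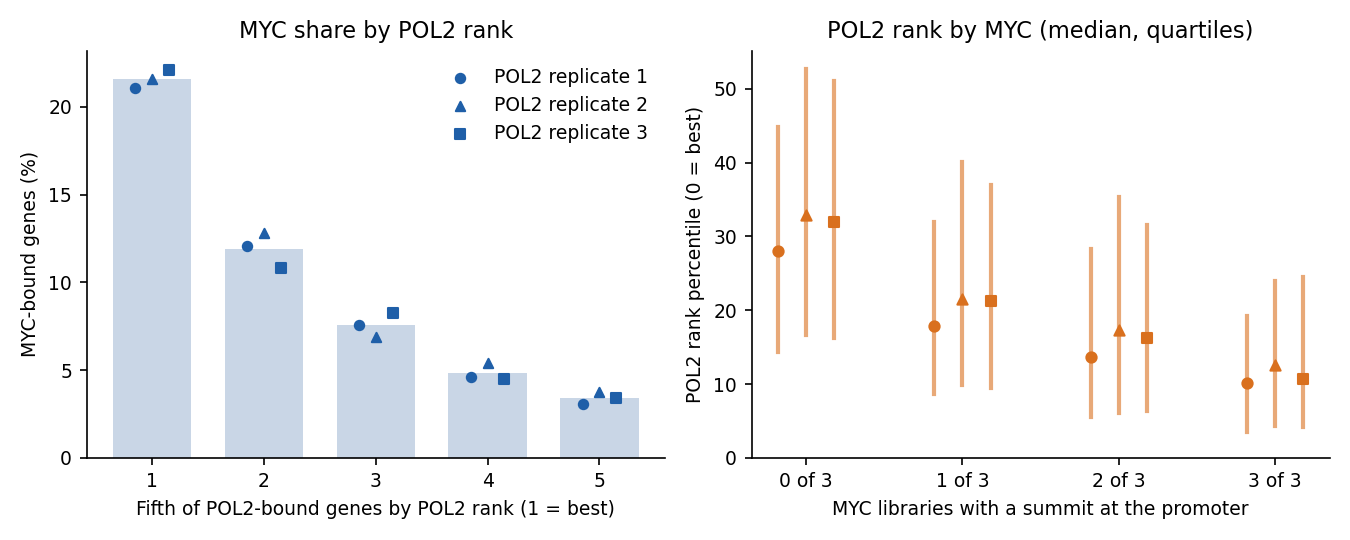
Left, the percent of POL2-bound genes that were MYC-bound in each of the 5 groups by POL2 rank (bars are means, points the 3 POL2 libraries). Right, the POL2 rank percentile by the number of MYC libraries with a summit, with points for the median and lines for the quartiles in each POL2 library; medians lie between 28.0 and 32.9 at 0 libraries and between 10.1 and 12.6 at 3.

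MYC ranks with and without POL2 differed by less than their spread. MYC promoter summits with a POL2 summit within 1 kb in the same-numbered library had median MYC percentiles of 48.2, 47.4 and 50.8, and those without had 51.7, 57.3 and 44.7. The difference of -2.46 points was smaller than its spread over libraries (SD 8.05, n = 3) and had the opposite sign in replicate 3 (exact two-sided sign flips p = 0.75, adjusted 0.75). It changed sign, to 1.27 points, without MYC or POL2 replicate 2, and to 1.48 points with a window of 2 kb.

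MYC summits were placed more loosely around the TSS than POL2 summits. Among summits within 1 kb of a coding TSS, the median distance was 109, 110 and 121 bp for MYC (113 ± 6.66, SD, n = 3) and 62, 63 and 60 bp for POL2 (61.7 ± 1.53, SD, n = 3). The difference of 51.7 bp was without overlap (exact two-sided permutation p = 0.1, adjusted 0.233, the smallest that 20 relabellings allow). It was 106 bp with canonical TSSs alone and 78.3 bp in lists of equal length. POL2 summits favoured the downstream side, at 66.2%, 65.6% and 66.2% (66.0% ± 0.337, SD, n = 3), while MYC summits were split almost evenly, at 50.0%, 53.4% and 51.6% (51.7% ± 1.72, SD, n = 3). MYC thus stood -14.3 points from POL2 (exact permutation p = 0.1, 0.233 after adjustment), and -27.5 points in lists of equal length. The fullest bin of 50 bp held 33.2% of POL2 promoter summits and ran from 0 to 50 bp downstream. The bins on either side of the TSS each held 14.9% of MYC promoter summits.

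Summarised over genes, POL2 was again further downstream of the TSS. At the 430 genes with both antibodies in 3 of 3 libraries, the median position was -5, -3 and -4.5 bp for MYC and 17, 16 and 17 bp for POL2. POL2 itself sat at nearly the same place with and without MYC: its median position was 16 against 20 bp, 15 against 18 bp and 18 against 19 bp in the 3 POL2 libraries. Among single promoters, SMARCC1 had MYC 365, 392 and 385 bp downstream of a TSS and EIF3E 181, 182 and 154 bp downstream. The summits at MXD3 were at -378, -368 and -352 bp, and those at ENO1 at -107, -98 and -116 bp. At SMARCC1 the POL2 summits lay at 104, 93 and 106 bp, so MYC was downstream of them, and at ENO1 they lay at -12, -2 and -14 bp, so MYC was upstream. At these 4 promoters, picked after their values were seen, the MYC replicates lay close together on 1 side of the TSS. At DDX21 the summits lay at -109, 240 and -47 bp, on both sides.

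Relative to the POL2 summit, MYC was found on both sides. A POL2 summit of the same-numbered library lay within 1 kb of 93.6%, 91.4% and 93.8% of MYC promoter summits, and within 250 bp of 58.6%, 55.1% and 55.7%. Where there was one within 1 kb, the median separation was 177, 198 and 189 bp. MYC lay upstream of it in 45.2%, 41.8% and 44.7% of cases, in the direction of the gene, and the median offset was 31, 56 and 38 bp downstream. Only 15.9%, 15.1% and 15.6% were within 50 bp, so the 2 summits rarely coincided at this resolution. Per the labels, chromatin was sheared to fragments about as long as these separations or longer. Of MYC summits outside coding promoters, 61%, 52.1% and 59.3% had a POL2 summit within 1 kb.

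**Figure D4:**
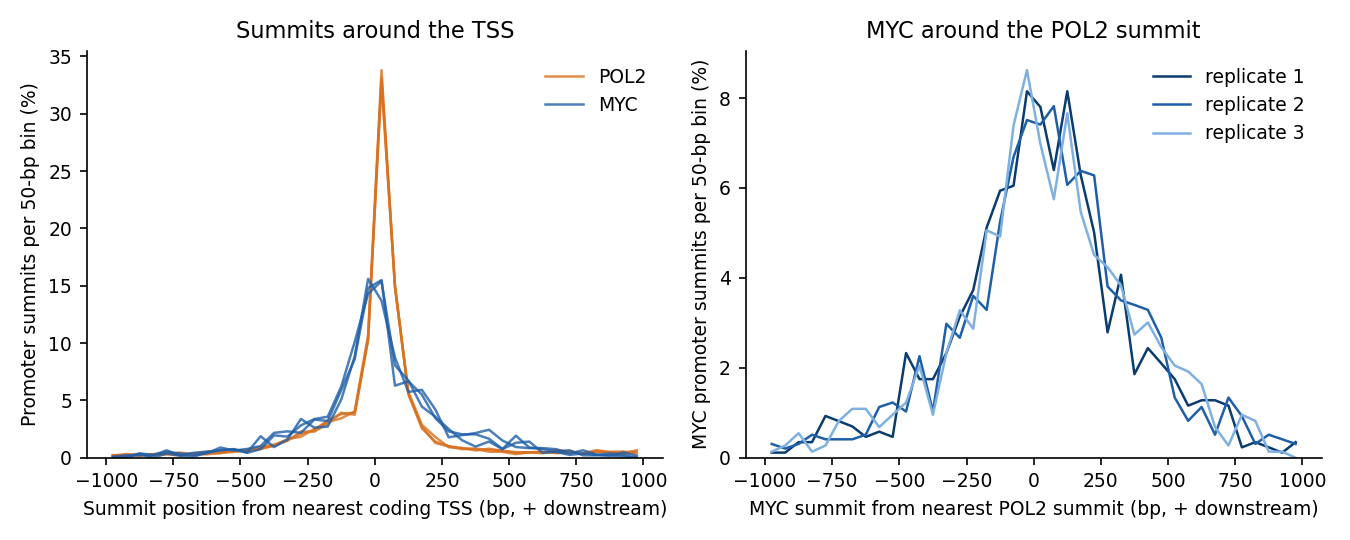
Left, the percent of promoter summits in bins of 50 bp by position from the nearest coding TSS (x axis, bp, downstream positive), with 1 line per library, orange for POL2 and blue for MYC; POL2 peaks at 33.2% just past the TSS and MYC at 14.9% on either side. Right, the percent of MYC promoter summits by position from the nearest POL2 summit of the same-numbered library, for the 3 replicates, with the fullest bin at 8.09%.

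Coding promoters took a larger share of MYC than of POL2 summits in the full lists, at 75.4%, 74.9% and 78.8% against 50.1%, 55.9% and 56.2% (means 76.4% ± 2.17 and 54.1% ± 3.43, SD, n = 3 each). The difference of 22.3 points (exact permutation p = 0.1, adjusted 0.233) reversed to -10.3 points when each list was shortened to 988 summits, where the shares were 77.0% and 87.3%. It was 2.08 points, with overlapping libraries, for summits scoring at least 10. The order of the antibodies in this measure thus turned on how many POL2 summits were counted.

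Promoters with and without MYC were alike in base composition. The median GC content within 250 bp of the canonical TSS was 67.1% in both groups of POL2-bound genes. The ratio of observed to predicted CpG was 0.876 with MYC and 0.845 without. CACGTG was present at 222 of the 880 promoters with MYC (25.2%) and 773 of the 7449 without (10.4%). Most promoters with MYC therefore had no canonical E-box in this window, and most promoters with one were not among the MYC-bound.

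MYC sites without POL2 were few. Of 920 MYC sites in at least 2 of 3 libraries, 72 (7.83%) had no POL2 summit of any of the 3 libraries within 1 kb, and 31 of them were seen in 3 of 3 MYC libraries. Their median distance to POL2 was 14697 bp, with 25 within 5 kb and 15 beyond 50 kb. The count was 40 without MYC replicate 2 and 41 without MYC replicate 1. Sites with and without POL2 lay in different places. Coding promoters held 721 of the 848 sites with POL2 (85.0%) and 23 of the 72 without (31.9%). The 72 also comprised 22 sites (30.6%) within coding genes, 17 (23.6%) between genes, 7 (9.72%) within lncRNA genes and 3 (4.17%) at lncRNA promoters. Chromosome 8 held 9 of the 72 (12.5%) and 41 of the 848 (4.83%).

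Their median MYC rank was 422, against 515 for sites with POL2. The best of them lay within a coding gene, at chr3:54891609-54891621 in GRCh38. The nearest coding TSS was that of LRTM1, 36443 bp away, which need not be the gene that holds the site. Its MYC ranks were 31, 88 and 39, and the nearest POL2 summit was 572868 bp away. The site nearest ABCB5, a transporter gene, ranked 72, 105 and 102 and was 211266 bp from POL2. The site nearest EPB41, which encodes a membrane skeleton protein, ranked 55, 125 and 313, lay at -1946 bp from its TSS and was 29488 bp from POL2. At coding promoters, CYTH1 ranked 110, 415 and 95, with POL2 19014 bp away, and KLF16 ranked 151, 168 and 64, with POL2 11822 bp away.

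Some of these sites lay little more than 1 kb from POL2. The site at -1001 bp from the TSS of FZD8, a Wnt receptor gene, ranked 71, 43 and 172, and its nearest POL2 summit was 1028 bp away. At HNRNPU, which encodes a nuclear ribonucleoprotein, the MYC summit was at -16, -78 and -66 bp from a TSS with ranks of 46, 141 and 154, while the nearest POL2 summit was 1327 bp away. A site near TRIB1 ranked 89, 84 and 206, with POL2 1054 bp away. Much further out, an intergenic site 87529 bp from the TSS of its nearest gene, YWHAZ, ranked 90, 93 and 78 and was 21214 bp from POL2. Of the 23 coding promoter sites, 12 had a nearest gene that was POL2-bound through a different TSS, and 11 a nearest gene with POL2 in 0 of 3 libraries.

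The sequences of some sites without POL2 are printed on the plus strand, with CACGTG in capitals. All but LRTM1 were picked because they hold the motif. Each line is named by the gene with the nearest TSS. The LRTM1 and EPB41 lines run 75 bp to each side of the summit, and the best site, nearest LRTM1, has no CACGTG in its window.
CYTH1 chr17:78717078-78717107 (+): ctcccccactgcCACGTGctgcagccatgc
KLF16 chr19:1864257-1864286 (+): ccgcccccaggcCACGTGcgcgacccttcc
MLLT1 chr19:6280205-6280234 (+): aggtgtgcgccgCACGTGgaggggggcggg
RASGRF1 chr15:78979779-78979808 (+): ccttggaccgtcCACGTGgccttggaccag
LRTM1 chr3:54891541-54891691 (+): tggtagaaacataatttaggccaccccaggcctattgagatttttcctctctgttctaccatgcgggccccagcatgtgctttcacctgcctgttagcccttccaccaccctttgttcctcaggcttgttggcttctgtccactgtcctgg
EPB41 chr1:28885070-28885220 (+): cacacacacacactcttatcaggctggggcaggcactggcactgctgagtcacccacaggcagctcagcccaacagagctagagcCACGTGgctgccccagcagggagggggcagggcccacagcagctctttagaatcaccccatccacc
CACGTG lay within 100 bp of 34 of the 72 sites (47.2%, Wilson 95% interval 36.1% to 58.6%, counting error only) and of 278 of the 842 sites with POL2 for which sequence was read (33.0%, 29.9% to 36.3%).

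Per library, CACGTG lay within 100 bp of 29.9%, 28.5% and 29.4% of MYC summits with POL2 (29.3% ± 0.710, SD, n = 3) and of 39.1%, 36.4% and 44% of those without (39.8% ± 3.85, SD, n = 3). The difference of -10.5 points had the same sign in 3 of 3 libraries (exact two-sided sign flips p = 0.25, adjusted 0.292). Among summits scoring at least 10 it reversed, to 2.17 points, with 42.8% and 40.6%. By position, the share was 29.6% ± 0.7 at promoters with POL2 and 47.6% ± 8.97 at promoters without (SD, n = 3), the latter from 26 to 38 summits per library. Elsewhere it was 28.0% ± 3.00 with POL2 and 37.0% ± 2.66 without (SD, n = 3). CACGCG took the opposite order, at 32.0% ± 1.33 and 21.1% ± 4.97 at promoters and 22.9% ± 1.1 and 12% ± 1.01 elsewhere (SD, n = 3). The GC content of the summit windows moved with these classes. It averaged 69.2% at promoters with POL2, 66.9% at promoters without, 60.2% elsewhere with POL2 and 53.4% elsewhere without, and its part in the motif shares was not tested.

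E-box share also followed the MYC rank. In the better-ranked part of each MYC list (summits up to the median rank), 37.1% ± 2.23 of summits with POL2 and 45.5% ± 0.814 of those without had CACGTG (SD, n = 3). In the other part the shares were 21.5% ± 2.1 and 34.6% ± 7.19 (SD, n = 3). The single values in the other part without POL2 were 31.2%, 29.8% and 42.9%, a wider spread from 42 to 94 summits per library.

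**Figure D5:**
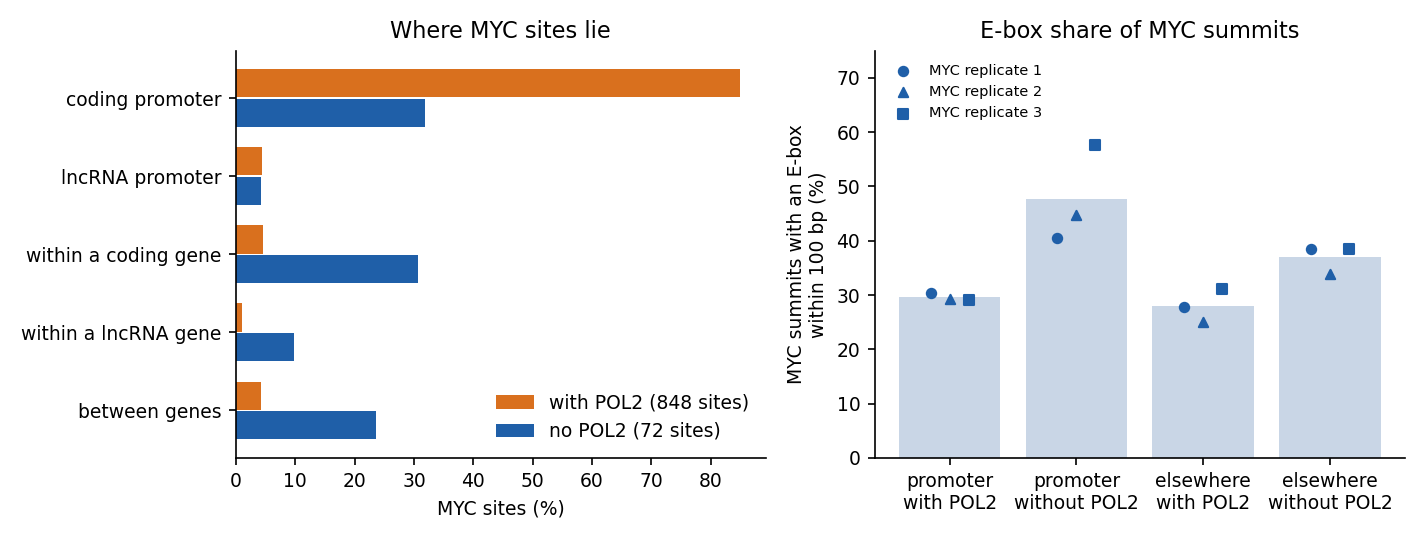
Left, the percent of MYC sites in each kind of place (x axis) for the 848 sites with POL2 (orange) and the 72 without (blue). Right, the share (%) of summits from the MYC lists that had an E-box no further than 100 bp away, in 4 classes, with bars for means and points for the 3 MYC libraries; promoters without POL2 have the highest mean (47.6%) and the widest spread, from 40.5% to 57.7%.

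A few genes had MYC at their promoter and no POL2 call. Among the 30 MYC-bound genes that were not POL2-bound, FAM174B had MYC ranks of 507, 50 and 56 and POL2 in 0 of 3 libraries. MLLT1, which encodes a subunit of the super elongation complex, ranked 91, 185 and 164, with POL2 in 0 of 3. LSS, the lanosterol synthase gene, had MYC in 2 libraries, at ranks 165 and 234. SLC7A1, a cationic amino acid transporter gene, had MYC in 2 libraries, at ranks 688 and 948. NLE1, a ribosome biogenesis gene, had MYC ranks of 127, 958 and 320 and POL2 in 1 of 3 libraries.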

How the data were processed

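The members and the gene lists were chosen with earlier results of these data known. Per the labels, reads of 50 bp were processed with nf-core/chipseq against GRCh38.p14, and the submitters' processing notes name BWA 0.7.18-r1243 and MACS3 3.0.1. The control and options used for peak calling are not given in the sources used here. The deposited score of each summit was read as the authors' −log10 q-value, since the scores of each of the 6 lists began just past 1.301, the −log10 of 0.05. Summits were ranked or filtered by score inside their own list only. The lists carry no depth.

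Coding TSSs were those of GENCODE release 44, and sequence came from the hg38 reference. Summits on sequences outside chromosomes 1 to 22, X and Y counted as not near a TSS. Genes were called bound at 2 of 3 libraries within 1 kb. Sites were MYC summits chained at 250 bp. A gene's rank is that of its best summit within 1 kb. Named were the 15 best MYC genes, the 10 best POL2 genes without MYC, the 10 best MYC sites without POL2, up to 4 members per list, SLK, MYC, MAX and established MYC targets. RPLP0, RPL3, RPS27, WDR74, KRT8, KRT18, KLK3 and the genes with MYC but no POL2 call were named after their values were seen. Lists overlap. Some items that these rules select are not reported here. Libraries were the unit of every test, with exact two-sided sign flips for values of the same library and exact permutation between antibodies, adjusted over 7 tests. The smallest exact p was 0.25 for sign flips and 0.1 for permutation, so no test could pass 0.05. The code for gene calls was run on simulated lists, where 200 of 200 seeded promoters were recovered over 19689 genes. Seeded summits lay close to a TSS in every simulated MYC list, so this checks the code and not the accuracy of calls in real lists. Alternatives covered windows, score minimums, list length, annotation, the number of libraries, a fit with a replicate block, and each library left out in turn. Computation used pysam 0.24.0, pandas 2.3.3, numpy 2.4.6 and matplotlib 3.10.9 under Python 3.11.15.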

Additional observations from a re-analysis of the deposited data

How the results depend on the processing

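Of 90 alternative values of the 7 tests, 85 kept their direction and 5 reversed: the MYC rank difference (-2.46 points) became 1.48 with a 2 kb window and 1.27 without MYC or POL2 replicate 2, the promoter share difference became -10.3 points in lists of 988 summits, and the E-box difference became 2.17 points with scores of at least 10. Leaving out 1 library gave 9.96 to 11.6 points for the MYC share, -18.3 to -16.2 for the POL2 percentile, -6.73 to 1.27 for the MYC rank, 47.8 to 53.8 bp for the distance, -15.2 to -13.5 points for the downstream share, 20.3 to 23.3 for the promoter share and -11.9 to -8.5 for the E-box share. The 880 genes with both became 538 and 189 with scores of at least 5 and 10, 1751 and 430 with 1 and 3 libraries required, and 530 to 862 without 1 library. The 72 MYC sites without POL2 became 36 with scores of at least 10, 290 and 31 with 1 and 3 libraries required, 316 and 47 with distances of 250 bp and 5 kb, and 40 to 85 without 1 library. Fewer or more summits entered by construction; other causes were not tested.

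Same-numbered MYC and POL2 libraries did not deviate together (correlations over genes of -0.0032, 0.0088 and 0.0067). These correlations cannot show whether such libraries came from the same chromatin, and the sample labels give only a replicate number. With the replicate block the differences were 10.6, -16.4, 51.7, -14.3 and 22.3, each with its direction kept. Exact sign flips gave p = 0.25 for each, the smallest value that 8 flips allow, so these p-values could not show a change. Depth limits what a missing summit shows: a promoter without a MYC call may hold MYC below the calling threshold.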
